A study of Mus musculus with 4 samples.

Results

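The genes described here are Emx1, Emx2, Dmrta1, Dmrta2, Dmrt3, Lmx1a and Lmx1b, transcription factor genes known from the dorsal forebrain, among other places. They were taken by gene name from the deposited table of expression values, in which all 7 were found among 55426 rows. The choice was made with the values of the same treatment comparison known. Their levels are therefore given as a description and no test is attached to them.

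RNA was measured by poly(A)-selected sequencing in mouse retinal organoids at day 6, which are aggregates of pluripotent stem cells grown towards retinal progenitors. All 4 libraries came from 1 line, an Rx:GFP reporter line with the genotype Mettl3 KO, Dox-inducible HA-METTL3, grown with AGN at 0.1 µM. METTL3 is the catalytic subunit of the enzyme complex that writes N6-methyladenosine (m6A) on RNA. The tagged copy is under the control of doxycycline (Dox). The 2 untreated libraries received no Dox, and the 2 Dox libraries were treated at 2 µg/ml for 6 days. The titles read EV and EV+Dox, and EV is not explained in the labels. Nothing in the labels says that the replicates of a group were separate cultures, so p-values measure only the spread between these libraries, which may be technical.

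Emx1 and Emx2 encode homeodomain proteins, relatives of fly empty spiracles, that pattern the cerebral cortex. Emx2 in particular is needed for the medial cortex and the hippocampus. Dmrta1, Dmrta2 (also called Dmrt5) and Dmrt3 encode zinc-finger proteins with a DM domain, and Dmrta2 and Dmrt3 act in the medial pallium next to the cortical hem. The cortical hem is a signalling centre at the dorsal midline that secretes Wnt and BMP proteins. Lmx1a and Lmx1b encode LIM-homeodomain proteins of the roof plate and hem, and are also known for their role in midbrain dopaminergic progenitors.

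Promoters of the 3 most abundant members are shown because these genes were all lower with Dox. RefSeq promoters (GRCm38.p6, the same assembly as mm10) were matched for 7 of 7 members. Each runs from 250 bases before to 50 bases after the start annotated in RefSeq. The gene positions given below are from GENCODE M21, whose starts can differ. By these, the windows of Emx1, Emx2, Dmrta1 and Lmx1a lie inside the gene, and that of Dmrt3 almost wholly so. The values for these windows may therefore describe transcribed sequence. Capitals mark CG dinucleotides, and each sequence reads 5′ to 3′ on the gene's own strand, here the plus strand. Emx2 lies at chr19:59458440-59458739, Dmrta2 at chr4:109977775-109978074 and Dmrt3 at chr19:25610287-25610586.
Emx2: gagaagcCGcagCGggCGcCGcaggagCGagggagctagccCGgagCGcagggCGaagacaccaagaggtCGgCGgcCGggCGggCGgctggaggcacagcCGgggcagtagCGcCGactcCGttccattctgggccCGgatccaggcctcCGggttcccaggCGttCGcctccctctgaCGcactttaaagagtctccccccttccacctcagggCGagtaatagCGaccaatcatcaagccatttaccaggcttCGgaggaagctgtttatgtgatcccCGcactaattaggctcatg
Dmrta2: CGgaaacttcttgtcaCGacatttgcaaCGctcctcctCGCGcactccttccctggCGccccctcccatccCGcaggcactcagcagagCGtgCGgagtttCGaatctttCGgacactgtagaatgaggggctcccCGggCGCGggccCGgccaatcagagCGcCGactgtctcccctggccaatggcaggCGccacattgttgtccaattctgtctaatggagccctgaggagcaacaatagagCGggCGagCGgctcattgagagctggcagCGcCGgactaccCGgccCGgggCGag
Dmrt3: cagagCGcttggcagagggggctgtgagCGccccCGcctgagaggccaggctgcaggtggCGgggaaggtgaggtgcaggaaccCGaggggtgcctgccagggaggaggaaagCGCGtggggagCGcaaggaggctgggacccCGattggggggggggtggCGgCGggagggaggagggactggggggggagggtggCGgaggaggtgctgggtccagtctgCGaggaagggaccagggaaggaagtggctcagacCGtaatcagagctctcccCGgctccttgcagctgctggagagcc

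The promoters of Emx2 and Dmrta2 each held 26 CG dinucleotides, and that of Dmrt3 held 15 at a higher GC content. GC content was 64.3% for Emx2, 63.7% for Dmrta2 and 70.7% for Dmrt3, and between 59.3% (Lmx1a) and 74.0% (Emx1) over the 7 members. The median over 27025 genes with a promoter of this length was 52.7%. The ratio of observed to expected CG was 0.838 for Emx2 and 0.859 for Dmrta2, against a median of 0.389, whereas Dmrt3 (0.471), Lmx1a (0.464) and Dmrta1 (0.408) were closer to that median. Emx1 had the highest ratio of the 7, at 0.903.

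A search of both strands for 4 short motifs gave no motif common to the members. The TCF/LEF core CTTTGA was found in 0 of the 7 promoters and in 16.2% of all promoters. The GLI core GACCACCC was found in 0 of the 7 and in 0.792% of all. The homeodomain core TAATTA was found in 1 member, Emx2, near the end of the sequence above, and in 5.31% of all promoters. The GC box GGGCGG was found in 4 of the 7 and in 35.9% of all. Such matches describe letters in a short window and not binding.

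Since METTL3 acts on RNA, the m6A consensus form GGACT was counted on the sense strand of each member's coding transcript with the longest reading frame (GENCODE M21). The densities were 2.40 per kilobase in Dmrta2, 2.06 in Emx2, 1.28 in Emx1, 1.25 in Dmrt3, 0.896 in Lmx1a, 0.835 in Lmx1b and 0.735 in Dmrta1. The median over 11611 tested genes with a coding transcript was 1.05 per kilobase, so 4 members lay above it and 3 below. Within 200 nucleotides of the stop codon, where m6A is commonly found, 3 of the 7 members held a GGACT, as did 39.7% of those tested genes. No m6A measurement was used here, so the letters say nothing of methylation.

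The sites of these 3 members closest to their stop codons are given with 10 bases on each side, with GGACT in capitals. The site of Emx1 (chr6:85204137-85204161) starts 73 nucleotides after the first base of the stop codon, in the 3′ UTR. The site of Dmrta2 (chr4:109982754-109982778) starts 113 nucleotides after it, also in the 3′ UTR. That of Dmrta1 (chr4:89692127-89692151) lies in the coding sequence before the stop codon. All 3 genes are on the plus strand.
Emx1: ggcccatgctGGACTctggccactc
Dmrta2: ttggctttagGGACTtgcttgggtg
Dmrta1: cctaacacctGGACTggttccagca

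Expression is given as FPKM, fragments per kilobase of transcript scaled to sequencing depth, which allows levels to be compared between genes. From the steps in which low values move, the depth was fitted as 31800000 to 34800000 fragments per library. A count of 3 fragments, the floor used here, corresponds to 0.0189 to 0.0714 FPKM for the members, and all of their values lay above it. Mettl3 itself had 40.33 and 37.98 FPKM without Dox, beside 45.2 and 46.37 FPKM with it, and did not pass in limma after Benjamini-Hochberg adjustment (log2 fold change 0.22, adjusted p = 0.122). The files do not say whether the inserted copy counts towards this gene, whose exons overlap those of Tox4. Of the 13 retinal progenitor markers tested, 11 were higher and 1, Otx2, lower with Dox. Without Dox the levels of the listed markers differed widely. They ran from 0 FPKM for Tbx5 and 0.01 FPKM for Six6 in both libraries to 173.12 and 172.52 FPKM for Otx2. The untreated libraries thus held much RNA of some of these markers and almost none of others.

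Without Dox, Emx2, Dmrta2 and Dmrt3 were abundant at close to equal levels, while Emx1, Dmrta1, Lmx1a and Lmx1b stood at a few FPKM or less. With Dox all 7 were lower, and both Dox libraries lay below both untreated libraries for 7 of 7. Among all 13931 genes tested, those with a mean of at least 1 FPKM, this held for 26.9%. The mean FPKM was at least 2-fold lower with Dox for 7 of 7, and for 3.34% of the genes tested. The members were chosen on this contrast, so these shares describe the choice. In bulk RNA, fewer cells expressing a gene and less RNA per cell cannot be told apart.

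**Figure D1:**
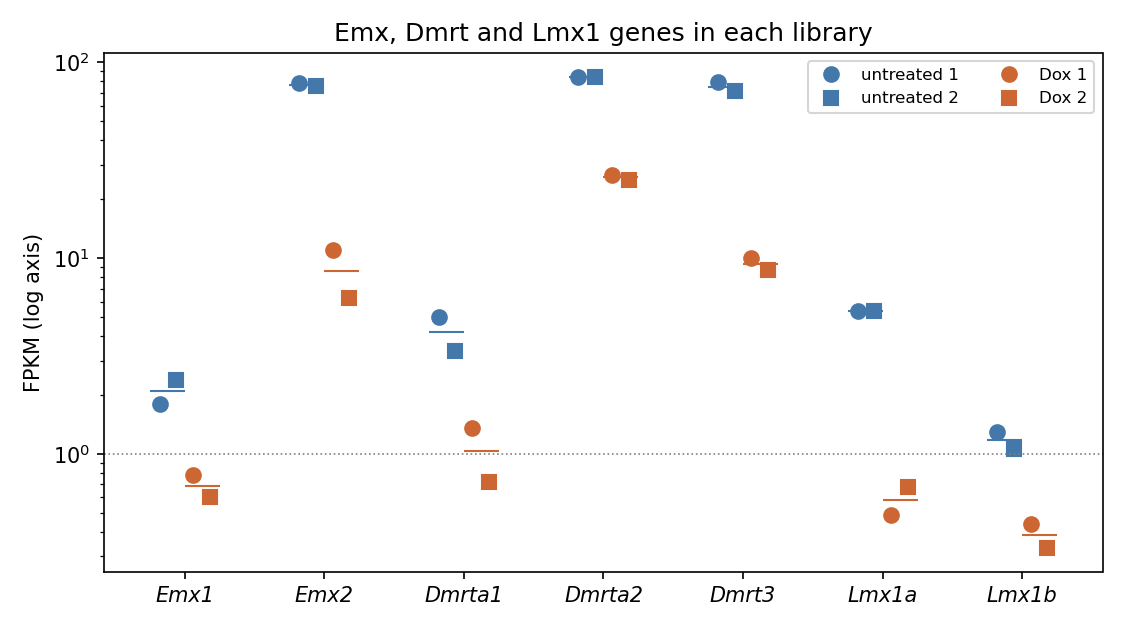
FPKM on a log axis of the 7 genes in each library, untreated in blue and Dox in orange, replicate 1 as circles and replicate 2 as squares, with group means as short lines and 1 FPKM dotted. For each gene both Dox points lie below both untreated points, and Emx2, Dmrta2 and Dmrt3 start between 71.49 and 84.63 FPKM.

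Emx2 (ENSMUSG00000043969; mm10 chr19:59458372-59465357) had 78.18 and 75.76 FPKM in untreated replicates 1 and 2, and 11.01 and 6.26 FPKM in Dox replicates 1 and 2. The untreated pair was tight and the Dox pair was not, with replicate 1 at 1.76 times replicate 2. Its untreated mean was 77.0 ± 1.71 FPKM (SD, n = 2) and its Dox mean 8.64 ± 3.36 FPKM (SD, n = 2), which is 8.91-fold lower. The log2 fold change, on log2(FPKM + 1), was -3.06, and it was -3.42 without Dox replicate 1 and -2.70 without Dox replicate 2. Emx2 shares 264 nucleotides of exon with the antisense gene Emx2os. Emx2os was at 0.51 and 0.63 FPKM untreated and at 0.08 and 0.12 FPKM with Dox, too low to be tested and far below Emx2.

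Emx1 (ENSMUSG00000033726; chr6:85187438-85204462), the other Emx gene, was at 1.8 and 2.38 FPKM without Dox and at 0.78 and 0.6 FPKM with it. The groups did not overlap, at levels that correspond to roughly 77 and 109 fragments untreated and 33 and 26 with Dox, counting over the longest transcript. Emx1 was 3.03-fold lower with Dox (log2 fold change -0.87). The levels of this pair are far apart in both groups. The FPKM of Emx2 was 43.4 and 31.8 times that of Emx1 in the untreated libraries and 14.1 and 10.4 times in the Dox libraries. This ratio did not overlap between groups, but others did. Dmrt3 over Emx2 was 1.01 and 0.944 untreated and 0.91 and 1.38 with Dox. Dmrta2 over Dmrta1 was 16.9 and 25.1 untreated and 19.6 and 34.8 with Dox. How often ratios of other gene pairs separate the groups was not computed.

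Dmrta2 (ENSMUSG00000047143; chr4:109978053-109983687) was at 84.26 and 84.63 FPKM untreated and at 26.7 and 25.07 FPKM with Dox. It was the most abundant member in every library. Its Dox replicates had a ratio of 1.07, beside 1.16 for Dmrt3 and 1.76 for Emx2. Its means were 84.4 ± 0.262 and 25.9 ± 1.15 FPKM (SD, n = 2 each), 3.26-fold lower with Dox (log2 fold change -1.67). Dmrt3 (ENSMUSG00000042372; chr19:25610301-25623921) was at 79.09 and 71.49 FPKM untreated and at 10.02 and 8.66 FPKM with Dox. The means of Dmrt3 were 75.3 ± 5.37 and 9.34 ± 0.962 FPKM (SD, n = 2 each), 8.06-fold lower with Dox (log2 fold change -2.88). These 2 Dmrt genes had nearly equal levels without Dox and unequal ones with it. The ratio of Dmrta2 to Dmrt3 was 1.06 and 1.18 in the untreated libraries and 2.67 and 2.90 in the Dox libraries.

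Dmrta1 (ENSMUSG00000043753; chr4:89679436-89694772) was at 5 and 3.37 FPKM without Dox and at 1.36 and 0.72 FPKM with it. Both pairs were uneven, replicate 1 being 1.48 times replicate 2 untreated and 1.89 times with Dox, yet the groups did not overlap. Dmrta1 was 4.02-fold lower with Dox (log2 fold change -1.35). Its share of the summed FPKM of the 3 Dmrt members stayed between 2.09% and 3.57% in all 4 libraries.

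Lmx1a (ENSMUSG00000026686; chr1:167689237-167848741) was at 5.36 FPKM in both untreated libraries and at 0.49 and 0.68 FPKM with Dox. The Dox values correspond to roughly 48 and 69 fragments. Lmx1a was 9.16-fold lower with Dox, the largest fold by FPKM among the 7, although its log2 fold change of -2.01 is smaller than those of Emx2 and Dmrt3 because the added 1 FPKM weighs more at low levels. Lmx1b (ENSMUSG00000038765; chr2:33560965-33640511, minus strand) was at 1.29 and 1.06 FPKM untreated and at 0.44 and 0.33 FPKM with Dox. It was 3.05-fold lower (log2 fold change -0.65) and its mean over the libraries did not reach 1 FPKM. The FPKM of Lmx1a was 4.16 and 5.06 times that of Lmx1b without Dox and 1.11 and 2.06 times with it.

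By the share of the untreated mean that remained with Dox, the members fell into a lower and a higher range. Lmx1a kept 10.9%, Emx2 11.2% and Dmrt3 12.4%. Dmrta1 kept 24.9%, Dmrta2 30.7%, Lmx1b 32.8% and Emx1 33.0%. Each of the 3 families had a member in both ranges. Within each range, neighbours in this order differed by little beside the spread of their Dox replicates. The gap between the ranges rests on means of 2 libraries, with uneven Dox replicates for Emx2 (ratio 1.76) and Dmrta1 (ratio 1.89).

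The summed FPKM of the 7 genes was 255.0 and 244.1 in the untreated libraries and 50.8 and 42.32 in the Dox libraries. Emx2, Dmrta2 and Dmrt3 took similar parts of it without Dox. Dmrta2 made up 33.0% and 34.7% of the sum untreated and 52.6% and 59.2% with Dox. Emx2 made up 30.7% and 31.0% untreated and 21.7% and 14.8% with Dox. In the Dox group 6 of the 7 members, Lmx1a being the exception, were higher in replicate 1 than in replicate 2. Among all tested genes this held for 44.0%.

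**Figure D2:**
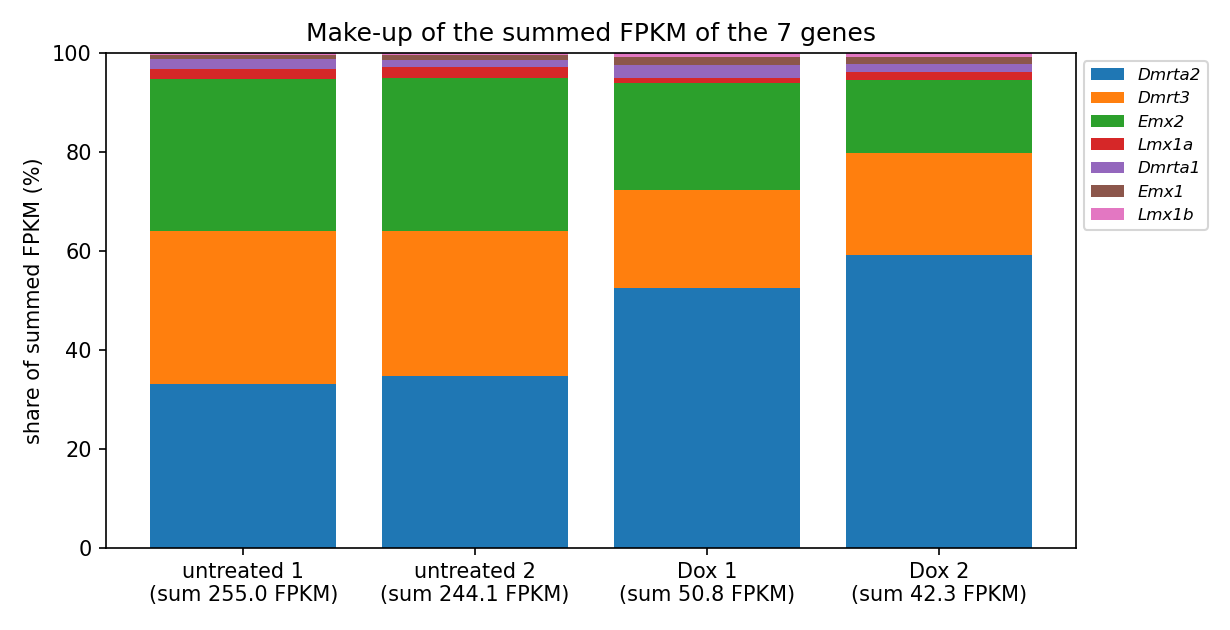
Share of each gene, in percent, in the summed FPKM of the 7 genes for each library, with the sum under each bar. Dmrta2 takes 33.0% and 34.7% of the untreated sums and 52.6% and 59.2% of the Dox sums.

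6 of the 7 members passed the filter of a mean of at least 1 FPKM, and Emx1 and Lmx1a did so only through the untreated libraries. The same held for some genes called lower below, such as Nhlh2, Olig2 and Sox10, with Dox means of 0.12, 0.195 and 0.625 FPKM. Pax2, called higher, passed only through the Dox libraries (untreated mean 0.21 FPKM). The median log2 fold change was -1.67 over all 7 members and -1.84 over the 6 that passed, beside -0.0042 over all genes tested. As background for the calls below, limma put 1297 of the tested genes (9.31%) past an adjusted p of 0.05, 619 (4.44%) higher and 678 (4.87%) lower with Dox. Without untreated replicate 1 these counts were 318 and 335, without untreated replicate 2 they were 320 and 377, without Dox replicate 1 they were 315 and 336, and without Dox replicate 2 they were 262 and 331.

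The genome positions of the members allowed a comparison with their neighbours, which played no part in the choice. The nearest protein-coding genes on both sides were taken from GENCODE M21. Of the 14 neighbours 10 were tested, and 1 was lower and 0 higher past the threshold in limma. Elavl4, a neuronal RNA-binding protein gene 220 kb from Dmrta2, fell from 5.94 and 4.94 FPKM untreated to 1.11 and 0.78 FPKM with Dox (log2 fold change -1.73, SE 0.151, adjusted p = 0.00206 in limma). Faf1, 14.1 kb from Dmrta2 on the other side, did not pass (log2 fold change 0.02, adjusted p = 0.895 in limma). At an unadjusted p below 0.05 only Rab11fip2 was added among the 10 (log2 fold change -0.30, adjusted p = 0.104 in limma). Over the 9 tested neighbours other than Elavl4, log2 fold changes ranged from -0.30 (Rab11fip2) to 0.17 (Rxrg).

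Dmrt3 lies between its relatives Dmrt1 and Dmrt2, 6 kb and 48.5 kb away. Dmrt1, known for its role in the testis, was at 1.59 and 1.2 FPKM untreated and at 0.42 and 0.22 FPKM with Dox, and Dmrt2 was at 0.16 and 0.21 against 0.06 and 0.01 FPKM. Both were lower in the Dox libraries without overlap and too low to be tested. Next to Dmrta2, the antisense gene Dmrta2os, whose exons share no sequence with those of Dmrta2, fell from 3.65 and 5.46 FPKM to 1.39 and 1.09 FPKM (log2 fold change -1.29, SE 0.191, adjusted p = 0.0137 in limma). It no longer passed without Dox replicate 1 (adjusted p = 0.0807) or without Dox replicate 2 (adjusted p = 0.116), nor in limma without a filter on low values (adjusted p = 0.104).

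**Figure D3:**
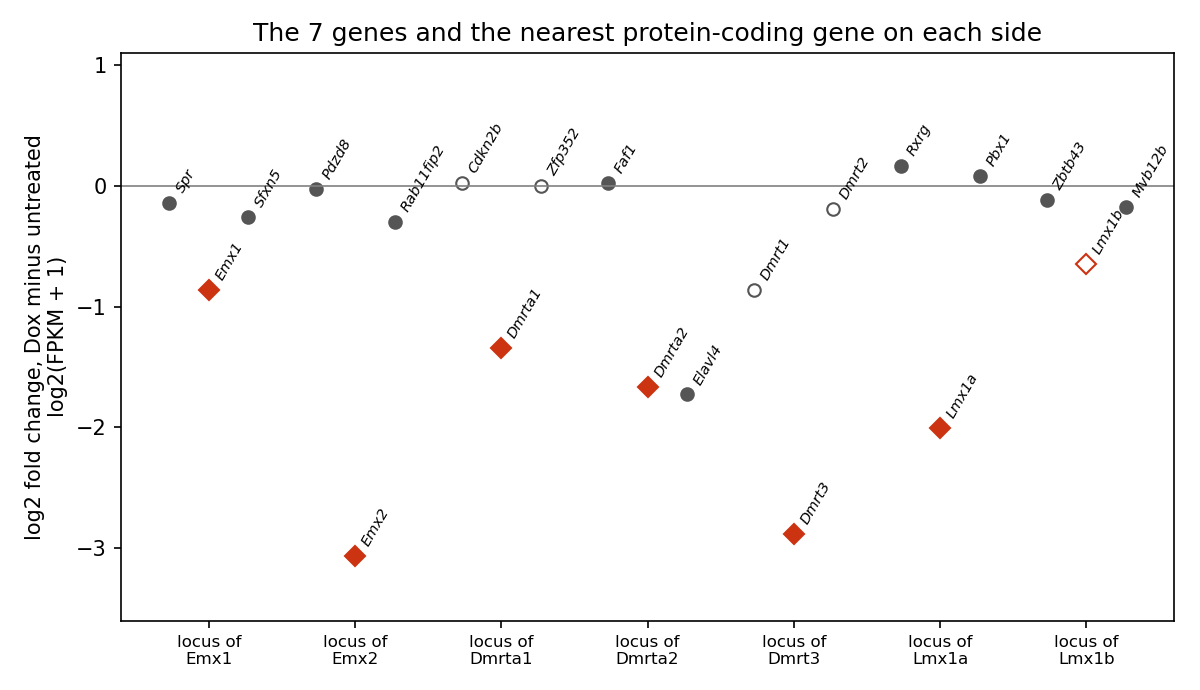
Log2 fold change, Dox minus untreated on log2(FPKM + 1), of each member (red diamonds) and of the nearest protein-coding gene on either side (grey circles), with open symbols for genes below a mean of 1 FPKM. Besides the members, Elavl4 at -1.73 and Dmrt1 at -0.86 lie clearly below 0.

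Of the other genes of the same families, the remaining 6 Dmrt genes were all too low to be tested, and the highest single value among them was 1.59 FPKM, in Dmrt1. Among other LIM-homeodomain genes and LIM cofactors, 12 of 20 were tested, with 4 higher and 1 lower past the threshold (median log2 fold change 0.26). Lhx5, a gene of the hem and of Cajal-Retzius cells, fell from 36.1 ± 1.87 to 6.13 ± 0.516 FPKM (SD, n = 2 each; log2 fold change -2.38, adjusted p = 1.44e-04 in limma). Lhx2, an eye-field and cortical selector gene, rose from 25.5 ± 1.71 to 300.5 ± 33.0 FPKM (log2 fold change 3.50, adjusted p = 6.96e-05). Lmo1 and Lmo4, which encode LIM-only proteins that compete for the LIM cofactor Ldb1, rose with log2 fold changes of 2.56 (adjusted p = 4.56e-04) and 0.58 (adjusted p = 0.00623). Also higher was Ssbp2, an Ldb1-binding cofactor gene (0.48, adjusted p = 0.01), which like Sall1 and Klf4 below is named outside the rule. Fewer genes of this list were called higher without untreated replicate 1, without untreated replicate 2 or without Dox replicate 2, and Lmo4 lost its call in each. Without Dox replicate 1 the number rose and Lmo4 kept its call. The log2 fold change of Lmo4 in these fits lay between 0.53 (without Dox replicate 2) and 0.63 (without Dox replicate 1). Ldb1 was at 112.67 and 113.06 FPKM untreated and at 130.78 and 143.71 FPKM with Dox and did not pass (adjusted p = 0.0831 in limma).

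Other pallial transcription factor genes went mostly the way of the members. This list, like the other gene and marker lists, was written with earlier results of these data known. The counts of all these lists are therefore a description. Of 25 listed, 21 were tested, with 13 lower and 3 higher (median log2 fold change -1.06). Pou3f3 and Pou3f2, class III POU factors of neural progenitors, fell with log2 fold changes of -3.23 (adjusted p = 7.42e-05) and -2.71 (adjusted p = 1.75e-04 in limma). The higher genes included Lhx2 and Sall1, a zinc-finger gene (log2 fold change 1.11, adjusted p = 0.00473 in limma). The cortical genes Eomes and Tbr1 did not exceed 0.77 FPKM in any library. The libraries with the highest Emx2, Dmrta2 and Dmrt3 thus had little RNA of these cortical genes, and the members are called by their gene names only.

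Of 30 cortical hem and roof plate genes, 25 were tested, and 15 were lower and 8 higher (median log2 fold change -1.26). Wnt8b, a Wnt gene of the hem, was at 87.09 and 85.29 FPKM without Dox and at 4.07 and 5.57 FPKM with it (log2 fold change -3.92, adjusted p = 1.04e-04 in limma). Zic1, a zinc-finger gene of the dorsal neural tube, and Rspo2, which encodes an enhancer of Wnt signalling, fell with log2 fold changes of -4.04 and -3.62 (adjusted p = 4.17e-05 for both). Bmp4, which encodes a dorsal midline and eye BMP, rose from 6.87 and 3.42 to 95.05 and 79.29 FPKM (log2 fold change 3.90, adjusted p = 9.36e-04). The count of higher genes was 5 without untreated replicate 1, without untreated replicate 2 or without Dox replicate 2. Levels of other listed Wnt genes differed widely in the untreated libraries, from 105.18 and 94.81 FPKM for Wnt7b to 0.61 and 0.67 FPKM for Wnt3a and 0.31 and 0.3 FPKM for Wnt2b (all chosen after their values were seen).

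The remaining lists held few tested genes. Of 10 Cajal-Retzius genes 5 were tested and 4 were lower. These were Lhx5, Nhlh2 (a neuronal bHLH gene, log2 fold change -1.67, adjusted p = 0.00162 in limma), Cdkn1a (a cell cycle inhibitor and p53 target, -0.91, adjusted p = 0.00269) and Ebf3 (-0.75, adjusted p = 0.0369). Their defining genes Reln and Trp73 were at or below 1.13 and 0.1 FPKM. Of 11 choroid plexus genes 4 were tested and 2 were lower, Folr1 (a folate receptor gene, -0.53, adjusted p = 0.00725) and Otx2 (a head patterning gene, -0.36, adjusted p = 0.0254), while Ttr, the main choroid plexus transcript, did not exceed 0.3 FPKM. Neither Folr1 nor Otx2 passed in any fit that left out 1 library (adjusted p of 0.0569 to 0.0771 for Folr1 and 0.0804 to 0.195 for Otx2). Ebf3 did not pass in those fits either (adjusted p of 0.0697 to 0.135).

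Of 7 antihem genes 4 were tested. Sfrp2, which encodes a secreted Wnt antagonist, and Nrg1, a neuregulin gene, rose (log2 fold changes 1.60 and 2.20, adjusted p = 0.00109 and 0.00117 in limma), and Dbx1, a homeobox gene, fell (-2.70, adjusted p = 7.27e-04). Of 15 ventral telencephalic genes 4 were tested. Of these 2 were lower, among them Olig2, a bHLH gene of neural progenitors (-2.15, adjusted p = 0.00112 in limma), and 1 was higher, Six3, an anterior forebrain and eye gene (3.52, adjusted p = 1.46e-04).

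Of 20 midbrain floor plate, dopaminergic and isthmic genes, where Lmx1a and Lmx1b also act, 6 were tested, with 2 higher and 2 lower. Wnt1 fell from 9.42 and 8.77 to 1.01 and 0.95 FPKM (log2 fold change -2.35, adjusted p = 2.55e-04 in limma), and Otx2 fell as given above. Pax2, an optic stalk and midbrain gene, rose from 0.22 and 0.2 to 20.56 and 30.37 FPKM (4.43, adjusted p = 1.86e-04). Fgf8 rose from 3.16 and 2.99 to 6.06 and 5.92 FPKM (0.78, adjusted p = 0.00904), and did not pass in the fits that left out 1 library (adjusted p of 0.0567 to 0.0699). The floor plate genes Foxa2 and Shh and the dopaminergic gene Th did not exceed 0.36, 0.06 and 0.29 FPKM. The lists share some genes. Over the 134 distinct listed genes, 75 were tested, 19 higher and 37 lower, with a median log2 fold change of -0.38.

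**Figure D4:**
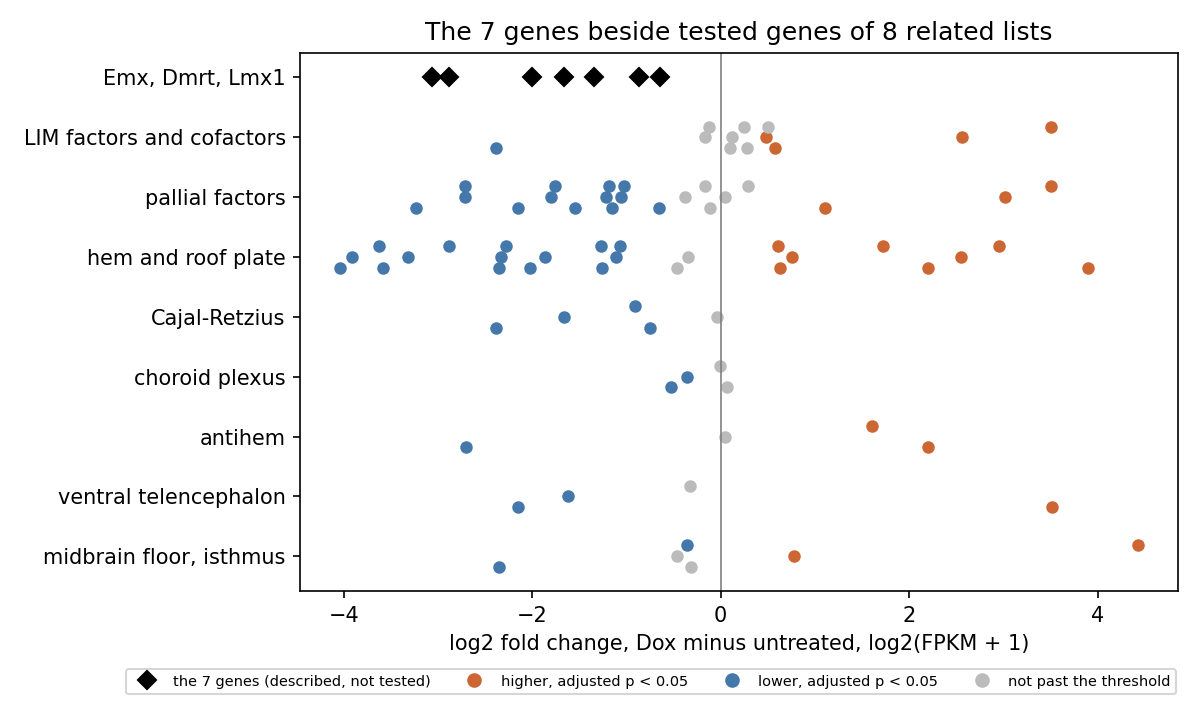
Log2 fold change, Dox minus untreated on log2(FPKM + 1), of the 7 members (black diamonds, not tested) and of tested genes in 8 related lists (circles, coloured by the limma call at an adjusted p of 0.05). Pallial genes (13 lower, 3 higher) and hem and roof plate genes (15 lower, 8 higher) lie on both sides of 0.

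Markers of other cell types were set beside the members. Of 9 neural crest markers 8 were tested and 6 were lower with Dox, and their summed level was 43.1 to 44.2 FPKM untreated and 13.1 to 14.3 FPKM with Dox. Sox10 fell from 12.79 and 13.35 to 0.82 and 0.43 FPKM (log2 fold change -3.12, adjusted p = 2.69e-04 in limma). The part of such cells in the levels of the members was not tested. Pluripotency markers had 8 tested and 1 lower (Klf4, log2 fold change -0.71, adjusted p = 0.0348), and surface ectoderm markers 5 tested and 0 called in limma. Hindbrain and spinal cord markers summed to 2.52 to 4.44 FPKM per library. At an unadjusted p below 0.05, the neural crest list added Snai2 (higher), the pluripotency list Nanog and Dppa3 and the surface ectoderm list Cdh1. The mesendoderm markers were all below the filter, with a highest value of 1.6 FPKM for Hand1.

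The genes whose values over the 4 libraries were most like each tested member were found by the distance between log2(FPKM + 1) profiles centred on each gene's mean. With 4 libraries in 2 groups this mostly finds genes with a similar fold change on log2(FPKM + 1), and it is given as a description. At low levels the added 1 FPKM weighs more, so folds in FPKM can differ. Closest to Emx2 were Sox10 (distance 0.284), the long non-coding RNA gene Pantr1 (0.349), which neighbours Pou3f3, and the chemokine receptor gene Cxcr4 (0.452). Pantr1 stood at 68.84 and 74.13 FPKM untreated and, like Emx2, was uneven with Dox, at 10.74 and 4.28 FPKM.

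Closest to Dmrt3 were Tnfrsf19 (0.0807), a Wnt-responsive receptor gene, Rspo1 (0.142), an R-spondin gene, and Rfx4 (0.149), a dorsal midline transcription factor gene. Closest to Dmrta2 were the tubulin gene Tubb2a (0.0416), the netrin receptor gene Dcc (0.0534) and Clec2l (0.0547). Closest to Lmx1a were Sema5b (0.116), Foxb1 (0.117) and the neuronal bHLH gene Nhlh1 (0.126), to Dmrta1 Ttyh1 (0.169), the cyclin gene Ccnd2 (0.276) and Crip2 (0.284), and to Emx1 Atl1 (0.0983), Slc15a2 (0.104) and Gem (0.136). In FPKM, Dcc fell by a larger fold than Dmrta2, from 3.15 and 3.04 to 0.32 and 0.29 FPKM. Foxb1 fell by a larger fold than Lmx1a, from 3.57 and 3.14 to 0.06 and 0.13 FPKM. Sema5b fell by a smaller one, from 12.83 and 13.26 to 2.5 and 3.05 FPKM.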

How the data were processed

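The authors deposited FPKM values per gene and library, rounded to 2 decimals and not pooled. STAR, Cuffdiff and the build mm10 are named, without versions or order, in the submitters' processing notes. The annotation, filters and strand setting are not given in the sources used here. Overlap was checked for 37 genes that are no members: called list genes, antisense genes, tested neighbours and Mettl3. Exons of 11 of these overlap another gene, so their values are uncertain if strand was ignored. Among them are Zic1 (with Zic4), Bmp4, Lhx5, Six3, Sfrp2, Nrg1, Otx2, Ebf3, Cdkn1a and Mettl3. Other named genes, such as those most like the members, were not checked. FPKM is not a count, so log2(FPKM + 1) was fitted with limma 3.58.1 (R 4.3.3, eBayes with trend) on all 4 libraries for 13931 genes (mean over libraries 1 FPKM or more), two-sided, with Benjamini-Hochberg adjustment over all of them and a threshold of 0.05. The procedure was tested on simulated data. Depth was fitted to low values of single-transcript genes (450 to 1200 nt, below 0.5 FPKM), of which 87.0% to 88.4% came within 0.15 of a whole fragment, against 18.7% to 20.6% at the median of other depths. It covers counting error only. All library columns matched a sample by library name. Coordinates, neighbours and transcripts are from GENCODE M21 (GRCm38), which matched 55154 rows, and promoters from RefSeq (GRCm38.p6).

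The 7 members and 9 gene lists were chosen with earlier results of these data known. Named genes are the members, their antisense and neighbouring genes, the 3 genes most like each tested member, and up to 4 called genes per list by size of change, with marker genes for the tissue check. Results of some genes under this rule are not reported here, though they enter the counts. Alternatives were the pseudocount, the filter, the scaling, the variance model, the replicate block and leaving out each library.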

Additional observations from a re-analysis of the deposited data

How the results depend on the processing

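No member's log2 fold change changed sign in any alternative run. The median of the members, -1.84, depended on the pseudocount by construction, at -2.47 with 0.1 and -1.21 with 5, and was -2.88 with a minimum mean of 5 FPKM, which leaves the 3 abundant members. Over all genes, 336 were called higher and 409 lower without a filter, and 408 and 413 with a minimum of 5 FPKM, against 619 and 678. In the fits without 1 library (leave-one-out), the higher calls numbered 262 to 320 and the lower calls 331 to 377, the lone library being assumed to vary like the other group. Of the listed genes, 23 were lower with a minimum of 5 FPKM, against 37, fewer being tested, and of the hem and roof plate genes 9, against 15. The median over all tested genes was at most 0.0165, with values rescaled to TPM.

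Adding the replicate block gave 532 genes higher and 602 lower, 1062 of them among the 1297. Calls in the alternative fits were followed for 37 genes: called list genes, antisense genes, tested neighbours and Mettl3. Among these the block changed only the call of Otx2 (adjusted p = 0.105 in limma). Other named genes, such as those most like the members, were not followed. Equal numbers did not deviate together (correlation of same-numbered deviations across genes -0.0435). Of the 27 called among these 37 genes, 4 lost the call in some fit that kept every library. These were Otx2 (also without a filter or the trend), Ebf3 (pseudocount 0.1 or no filter), and Fgf8 and Dmrta2os (no filter). In fits without 1 library 6 did, Lmo4, Ebf3, Folr1, Otx2, Fgf8 and Dmrta2os. Uncalled neighbours changed sign without 1 library: Pdzd8 to 0.0235 (without untreated replicate 1) and 0.102 (without Dox replicate 1), in a range of -0.154 to 0.102, and Faf1 to -0.0237 (without Dox replicate 1), in a range of -0.0237 to 0.0674. The cause was not tested.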

Other observations

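Several listed genes under a mean of 1 FPKM were not tested, and their values are given with no explanation; they were picked after their values were seen. Reln, the secreted glycoprotein of Cajal-Retzius cells, ran against the members, at 0.35 and 0.41 FPKM without Dox and at 1.13 and 0.89 FPKM with it. Dlx5, a ventral forebrain and placode homeobox gene, was at 0.09 and 0.05 FPKM against 1.06 and 0.95 FPKM with Dox. Lhx9, a LIM-homeodomain gene of the medial pallium and thalamus, was at 0.97 and 0.96 FPKM against 0.15 and 0.21 FPKM, the direction of the members. The same held for Bcl11a, a cortical zinc-finger gene, at 1.42 and 1.73 FPKM untreated and 0.43 and 0.36 FPKM with Dox.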
